A study of Mus musculus with 2 samples.

Results

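Intermediate filament genes of neural progenitors, neurons and astrocytes were followed in mouse hindbrain, taken from B6NCrl embryos on embryonic day 11.5. The 8 genes (Nes, Vim, Nefl, Nefm, Nefh, Ina, Prph and Gfap) were taken by symbol from 43346 Ensembl genes, and all 8 were found, with 19 transcripts between them. The series holds 1 group of 2 biological replicates, healthy tissue with no treatment or engineered allele named in the labels: pool 1 combined hindbrains of 109 male and female embryos and pool 2 of 88. Total RNA above 200 nt in length, 10 ng a library with ERCC spike-ins added, was sequenced, giving 45340440 and 41261544 expected counts, which are estimated reads per gene. Since both libraries belong to 1 group, no test between groups exists, no p-value is given, and pool differences are described without a replicate behind them.

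Levels are given as TPM, a share of the library adjusted for transcript length, which allows levels of different genes to be compared. Detection required a TPM of 1 or more in each pool. ERCC sequences held 16.2% and 22.2% of TPM in pools 1 and 2. The median over expressed genes of the log2 pool ratio (pool 2 over pool 1) was -0.11, and it was subtracted from all pool ratios below. The tissue label was checked against Hoxa2 (49.3 and 48.1 TPM in pools 1 and 2) and Hoxb2 (48.9 and 46.4), genes of the hindbrain. These are whole tissue libraries, in which fewer cells of a type and less RNA per cell cannot be told apart.

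Intermediate filaments are rope-like polymers of coiled-coil proteins, and a neural cell exchanges its set as it matures. Dividing neuroepithelial and radial glial cells hold vimentin (Vim) and nestin (Nes), a large protein that does not form filaments without a partner such as vimentin. Newborn neurons switch to alpha-internexin (Ina) and the light and medium neurofilament subunits (Nefl and Nefm), add peripherin (Prph) in neurons that send axons out of the brain, and gain the heavy subunit (Nefh) late, as axons mature. Astrocytes later make the glial fibrillary acidic protein (Gfap).

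A coding stretch that Vim, Gfap and the neuronal filament genes share is shown, beside the best match in Nes. It is shown because the genes below are compared as 1 family although their transcripts differ in length and structure. All 30-base windows of the Vim coding sequence were compared without gaps with the coding sequences of the other 7 genes. The window with the most identical bases in sum is printed for 5 of the genes with its GRCm38 position, with bases identical to Vim in capitals.
Vim (chr2:13580174-13580203, + strand): GTTAAGATGGCCCTGGACATTGAGATCGCC
Nefh (chr11:4943859-4943888, - strand): GTcAAGATGGCCCTGGACATTGAGATtGCC
Ina (chr19:47021920-47021949, + strand): GTcAAaATGGCCCTtGACATTGAGATCGCa
Nefl (chr14:68086061-68086090, + strand): GTcAAGATGGCCtTGGACATcGAGATtGCa
Nes (chr3:87973016-87973045, + strand): GagAAGcaGGgtCTacAgAgTcAGATCGCt

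Nefh shared 28 of the 30 bases with Vim, Ina 26 and Nefl 25. Of the genes not printed, Nefm shared 28, Prph 27 and Gfap 27. In Vim, Nefh, Ina and Nefl the stretch began between coding bases 1135 and 1165, at the first base of a codon. Nestin matched less: its best window held 18 identical bases from coding base 811. The best match in Tubb3, a tubulin gene outside the family, held 16, and that in the lamin gene Lmna held 23. The best matches in Nes, Tubb3 and Lmna also began at the first base of a codon, so this position does not set filament genes apart from Tubb3.

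The vimentin transcript was by far the most abundant of the 8, and the light neurofilament, alpha-internexin and medium neurofilament transcripts followed as a group. Vim stood at 1053 TPM in pool 1 and 1018 in pool 2 (1036 ± 25.2, SD, n = 2), on 41206 and 37829 reads, and ranked 57 and 56 among 21461 protein-coding nuclear genes. Nefl stood at 264.75 and 210.95 TPM (238 ± 38.04), on 25546 and 19559 reads. Ina followed at 217 and 182 TPM (199 ± 25.02), on 20059 and 16134 reads. The pool values of Nefl and Ina overlapped, so their order rests on each pool by itself, in which Nefl was 1.22 and 1.16 times Ina.

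Nefm stood at 172 and 163 TPM (168 ± 6.93), on 16421 and 14876 reads, just below Ina in each pool and without overlap. Nes stood at 52.2 and 57.6 TPM (54.9 ± 3.82), on 7984 and 8545 reads, below all 3 abundant neuronal filament genes. Prph came next at 14.95 and 11.2 TPM (13.1 ± 2.65), on 739 and 530 reads. The order of the 8 genes was the same in both pools, and apart from Nefl and Ina no neighbours in it overlapped.

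The late members were near the floor. Nefh stood at 0.62 and 0.84 TPM, on 71 and 93 reads, with 95% Poisson intervals of 0.484 to 0.782 and 0.678 to 1.03. Gfap stood at 0.15 and 0.080 TPM on 11 and 6 reads, with intervals of 0.0749 to 0.268 and 0.0294 to 0.174. These intervals cover counting error only, and within each gene the pools' intervals overlapped. Both genes stayed under the detection level, so 6 of the 8 members were detected in both pools (7, with Nefh, at a TPM of at least 0.5), against 33% of all Ensembl genes and 59.4% of protein-coding nuclear genes.

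**Figure D1:**
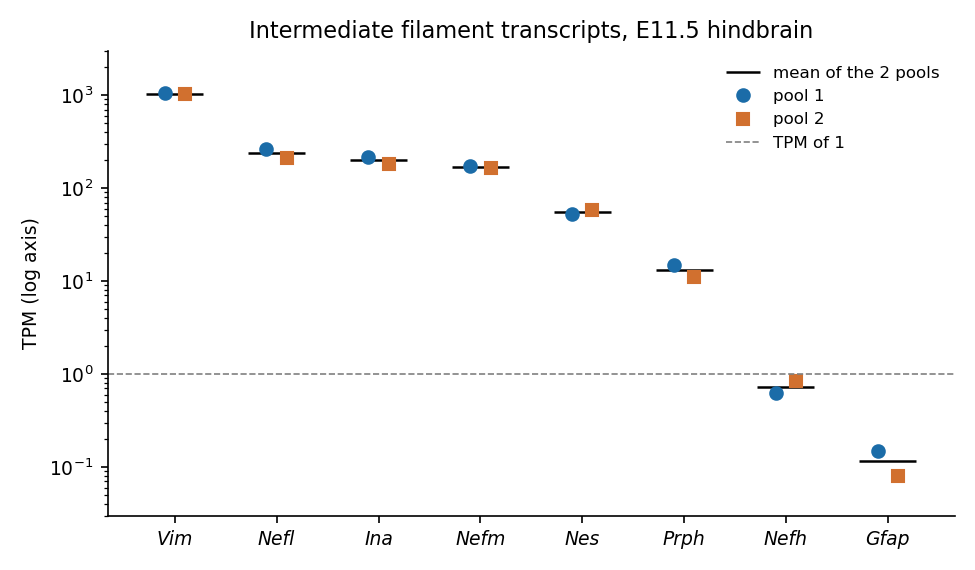
TPM (log axis) of the 8 genes in pool 1 (circles) and pool 2 (squares), ordered by mean (bars), with a dashed line at a TPM of 1. Vim is highest at a mean of 1036, Nefl, Ina and Nefm lie between 163 and 264.75, and Nefh and Gfap lie below 1.

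The 2 progenitor filament genes were unequal. Vim exceeded Nes by 20.2 times in pool 1 and 17.7 times in pool 2 on the TPM scale, with all transcripts included. With protein-coding transcripts alone, Vim stood at 656 and 623 TPM and Nes at 43.7 and 48.6. Summed over all transcripts, Vim and Nes reached 1106 and 1075 TPM. The 5 neuronal genes (Nefl, Nefm, Nefh, Ina and Prph) reached 669.95 and 567 TPM. The progenitor sum was thus 1.65 and 1.90 times the neuronal sum. That excess rests on how reads of Vim were assigned to its transcripts, as described next: with protein-coding transcripts alone it was 1.04 and 1.18 times. It also rests on the division by length: in expected counts the mean log2 ratio was -0.25, so that the neuronal sum was the larger.

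Vim lies on chromosome 2 (13573927 to 13582826, + strand). Its 6 transcripts shared most of their bases, apart from Vim-205 (2393 of 2926 bases in no other Vim transcript). Of its TPM, 37.2% and 38.4% went to Vim-203, a fragment of 535 nt annotated as a retained intron, 33.6% and 33.2% to the coding transcript Vim-206 and 28.5% and 27.9% to the coding transcript Vim-201. Counted in reads, the order was reversed: Vim-201 took 44.8% and 44.4%, Vim-206 42.4% and 42.4%, and Vim-203 12.2% and 12.7%. The shares of these transcripts differed between the pools by under 1.5 percentage points. TPM divides reads by effective length, which was 436 bases for Vim-203, 1678 for Vim-206 and 2094 for Vim-201, so reads given to the fragment weigh most.

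Only 52 of the 535 bases of Vim-203 lie in no other Vim transcript, and they are the end of an intron before exon 5. The coding transcripts differ inside the gene by exon 8, of 86 bases, which Vim-206 skips. Both stretches are printed, from GENCODE transcripts on GRCm38. Inside the gene, exon 8 sets Vim-206 apart from the other 2 main transcripts, and the intron bases set Vim-203 apart. A further difference, at the transcript starts, is described below. Capitals mark the stretch and lower case the adjoining transcript bases.
Vim exon 8 in Vim-201 (chr2:13581613-13581698, + strand): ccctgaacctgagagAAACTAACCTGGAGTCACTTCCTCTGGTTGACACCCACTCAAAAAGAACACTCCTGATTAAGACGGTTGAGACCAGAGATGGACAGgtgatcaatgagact
Intron bases at the start of Vim-203 (chr2:13579369-13579420, + strand): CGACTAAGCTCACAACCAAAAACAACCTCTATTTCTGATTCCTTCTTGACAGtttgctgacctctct

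Exon 8 is coding in Vim-201 and its 86 bases are no multiple of a codon, and the annotated coding sequence is 1398 bases with it and 1281 without it. Vim-201 and Vim-206 differ at their starts too. Vim-201 is annotated from 359 bases upstream of the RefSeq start site of Vim and Vim-206 from 30 bases upstream, so 329 bases at the start of Vim-201 are missing from Vim-206. A share given to Vim-206 can therefore come from reads without exon 8 or from the absence of reads in those 329 bases, and the deposited tables do not tell these apart.

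The 30 bases from 39 to 10 before the RefSeq start (GRCm38.p6) are printed for Vim, because Vim-206 is annotated to start among them, and for Prph, the other member with the same letters there. Capitals mark the letters TATAAA, searched on the gene's strand from 60 to 11 bases before the start.
Vim (chr2:13574272-13574301, + strand): acagtgtTATAAAagcagcgcccttggcgt
Prph (chr15:99055135-99055164, + strand): cgcagggcTATAAAgccgccccgcatcggt

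These letters began 32 bases before the start of Vim, at chr2:13574279-13574284, so that the annotated start of Vim-206 (13574281) lies inside them. They began 31 bases before the start of Prph, and were not found at these distances in Nes, Ina or Gfap. Nefl, Nefm and Nefh were not analysed here. Of 32851 RefSeq promoters, 2.65% held the letters at these distances.

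The level of Vim depended on these assignments. Its coding transcripts alone summed to 656 and 623 TPM, and all its reads divided by the effective length of Vim-201 gave 669 and 639 TPM, against 1053 and 1018 in the gene tables. Vim remained the highest of the 8 genes under both. Nes, the other member with a retained-intron transcript, stood at 43.7 and 48.6 TPM without it.

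**Figure D2:**
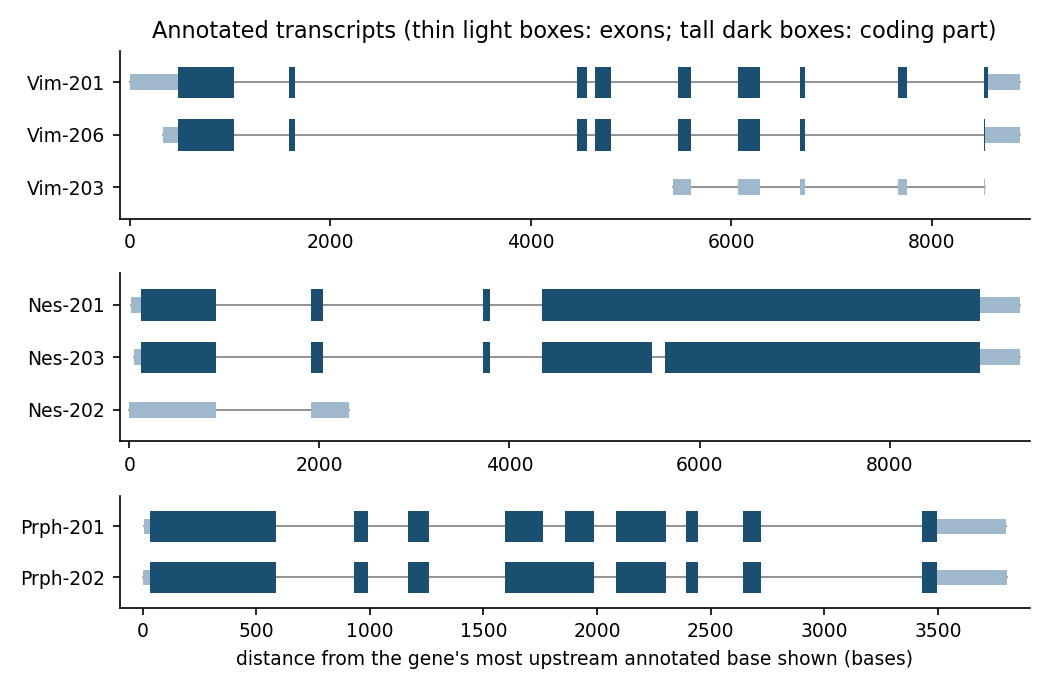
Exons (light boxes) and coding parts (dark boxes) of the main annotated transcripts of Vim, Nes and Prph, against the distance in bases from the most upstream base shown. Vim-206 lacks exon 8, Vim-203 runs from before exon 5 into exon 9, Nes-203 lacks 132 bases of the last exon and Prph-202 keeps 96 bases of an intron.

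Nestin transcripts (chromosome 3, 87971078 to 87980451, + strand) were led by Nes-201, with 60.05% and 69.2% of the gene's TPM. Nes-203 took 23.6% and 15.2%, and Nes-202, a 1311-nt form annotated as a retained intron, 16.4% and 15.6%. Counted in reads, Nes-202 took 3.81% and 3.61%. Nes-203 lacks 132 bases (44 codons) within the last exon, exon 4, starts 36 bases further downstream and has no base of its own. The stretch is printed because it carries the difference in coding sequence.
Nes stretch absent from Nes-203 (chr3:87976581-87976712, + strand): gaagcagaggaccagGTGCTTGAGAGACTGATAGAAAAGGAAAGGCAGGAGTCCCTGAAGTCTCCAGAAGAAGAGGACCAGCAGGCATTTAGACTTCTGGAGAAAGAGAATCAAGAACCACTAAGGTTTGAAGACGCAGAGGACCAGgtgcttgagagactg

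The stretch, in capitals, is part of a direct repeat. The 12 bases before it equal its last 12 bases, and its first 29 bases equal the 29 that follow it, so 41 bases occur at both ends, 132 bases apart. Inside those 41 bases a read fits the stretch and its surroundings equally. In the authors' deposited tables the intervals around the 2 pools, of unstated level, overlapped for Nes-203 (5.08 to 15.3 and 4.26 to 13.0 TPM) and for Nes-201 (27.4 to 37.4 and 34.4 to 43.0 TPM).

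Prph (chromosome 15, 99055174 to 99058978, + strand) was mostly Prph-201, with 89.2% and 95.3% of TPM. Prph-202, which retains the whole of intron 4 in frame (96 bases, 32 codons), took 10.8% and 4.73%, on 84.0 and 26.7 reads; the intron is printed as the only coding difference between them.
Prph intron 4 in Prph-202 (chr15:99056937-99057032, + strand): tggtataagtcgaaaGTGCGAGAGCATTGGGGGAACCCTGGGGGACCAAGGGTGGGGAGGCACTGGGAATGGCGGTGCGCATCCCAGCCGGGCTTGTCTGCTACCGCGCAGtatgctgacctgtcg

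The retained bases, in capitals, begin with GT and end with AG, as introns do, and 68.75% of them are G or C. The deposited intervals of Prph-202 overlapped between the pools (0.748 to 2.60 and 0.112 to 1.30 TPM). They belong to the transcript's TPM, not to its share. Prph lengths in the deposited tables (1769 and 1865 nt) differ from those of the later annotation used for the sequence (1757 and 1863), while the lengths of all other member transcripts were equal.

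**Figure D3:**
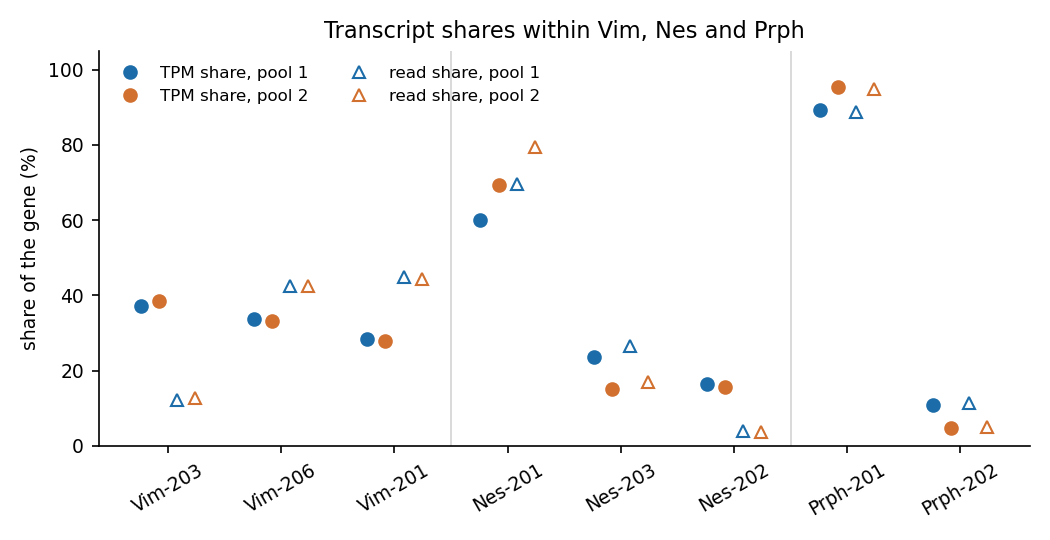
Share of each gene (%) held by its main transcripts, by TPM (filled circles) and by reads (open triangles), in pool 1 and pool 2. Vim-203 holds 37.2% and 38.4% of TPM but 12.2% and 12.7% of reads, while Nes-201 and Prph-201 lead their genes on both scales.

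Among the neuronal filament genes, 3 subunits made up nearly the whole sum. Nefl held 39.5% and 37.2% of the summed TPM of the 5 genes, Ina 32.4% and 32.0%, and Nefm 25.7% and 28.7%. Prph held 2.23% and 1.97%, and Nefh, which completes the adult neurofilament triplet with Nefl and Nefm, 0.0925% and 0.148%. Nefl thus exceeded Prph by 17.7 and 18.8 times and Nefh by 427 and 251 times.

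Nefl (68083863 to 68089095, + strand) and Nefm (68082590 to 68124846, - strand) are neighbours on chromosome 14. The long transcript Nefm-202 runs into Nefl on the opposite strand, over 1108 exonic bases. It was given 127 and 60.5 reads, or 0.70% and 0.37% of Nefm TPM, and Nefm-201 the rest. Ina (chromosome 19, 47014698 to 47025327, + strand) shares 456 exonic bases with Nt5c2 on the opposite strand, which stood at 43.4 and 39.6 TPM. No source used here states the strand setting, so reads in these overlaps may not be separable. Nefh (chromosome 11, 4938754 to 4948064, - strand) overlapped no other gene. Nefl, Ina and Nefh each had 1 transcript.

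**Figure D4:**
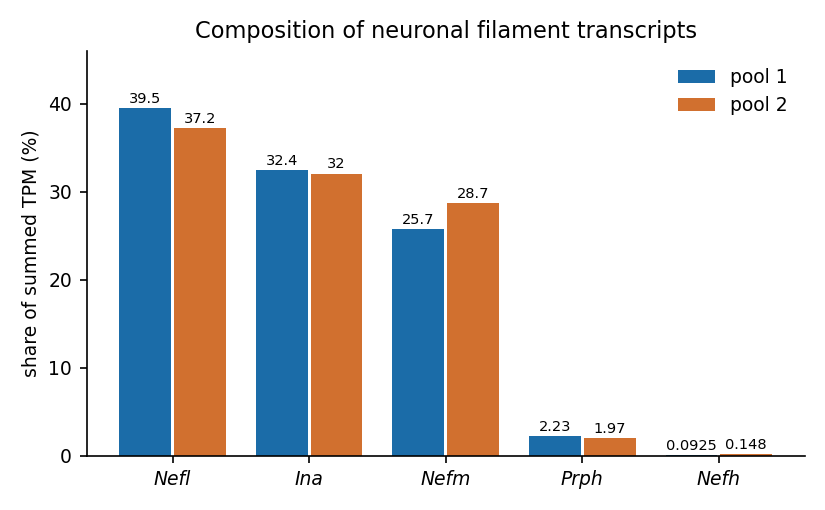
Share (%) of the summed TPM of 5 neuronal filament genes, for pool 1 and pool 2. Nefl, Ina and Nefm hold between 25.7% and 39.5% each, Prph 2.23% and 1.97%, and Nefh 0.0925% and 0.148%.

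Gfap (chromosome 11, 102887336 to 102900912, - strand), which lies within the span of the lincRNA Gm26668 without sharing exon bases, had too few reads to rank its transcripts. Gfap-202, which ends in its own last exon, was given 7.36 and 0 reads and Gfap-201 3.64 and 6. Other genes used as astrocyte markers were not all low. Of 7, 5 were detected, led by Gja1 (114 ± 9.27 TPM), a gap junction gene, and Fgfr3 (38.1 ± 5.01), a growth factor receptor, both also made by progenitors. Aqp4, the astrocyte water channel, stood at 0.87 and 0.68 TPM and S100b, a calcium-binding protein, at 0.32 and 0.31.

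Between the pools the filament genes stood close together. Relative to the median gene, the log2 ratio of pool 2 to pool 1, on TPM + 1, was 0.25 for Nes and 0.06 for Vim. It was 0.02 for Nefm, -0.15 for Ina, -0.22 for Nefl and -0.28 for Prph. None of the 6 members with a mean TPM of at least 1 was over 1.5-fold apart, against 5.98% of the 14942 genes at that level (4.35% higher and 1.63% lower in pool 2), 3.14% of protein-coding genes and 3.17% of the 13015 genes of any kind with a mean of at least 100 reads, so a count of 0 among so few genes is close to the background. Counting error alone gave 95% intervals of 0.20 to 0.29 for Nes, -0.24 to -0.19 for Nefl and -0.44 to -0.12 for Prph, while the central 95% of genes with at least 100 reads reached from -0.43 to 0.57. All 6 values lay within that range.

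**Figure D5:**
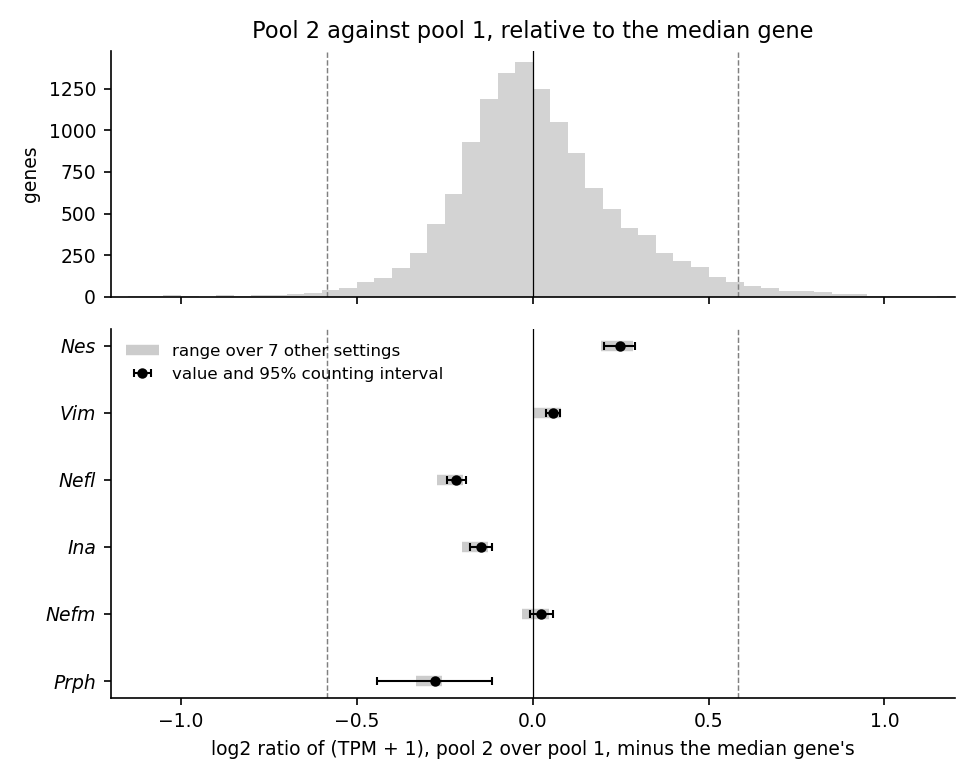
Top, number of genes with at least 100 reads by log2 ratio of pool 2 to pool 1 relative to the median gene. Bottom, the 6 members with a mean TPM of at least 1 on the same axis (points with 95% counting intervals, grey bars for the range over 7 other settings); all lie inside the dashed lines at 1.5-fold, from -0.28 for Prph to 0.25 for Nes.

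Genes that mark the cells in which the members are made were measured beside them. The lists here and below were chosen with earlier results of these data known, so how many of their genes were detected is not a finding. Of protein-coding nuclear genes 59.4% were detected. Summed TPM is given without subtracting the median pool ratio. Of 9 progenitor genes all were detected, with summed TPM of 1484 and 1268 and a median relative log2 ratio of -0.07. They were led by Fabp7 (970 ± 65.8 TPM), a radial glial fatty acid binding protein, and 6 of 9 were lower in pool 2. Hes5, a Notch target, was over 1.5-fold lower there (202.07 and 109 TPM), while Nes was higher there; Sox1 had the lowest mean of the list (3.97 and 3.78). Of 11 neuron genes all were detected, with summed TPM of 2081 and 1866 and a median of 0.01, led by Tubb3 (708 ± 76.3) and Stmn2 (321 ± 26.6), both genes of microtubules. Rbfox3, a marker of mature neurons, was lowest at 8.57 ± 0.148.

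Neurons with peripheral axons are a known site of Prph and neurofilament transcripts. Of 8 sensory ganglion genes 7 were detected, and 6 of these were lower in pool 2, with summed TPM of 136 and 98.9 and a median relative log2 ratio of -0.29, against 0 for all genes by construction. Pou4f1, a sensory neuron factor, stood at 53.1 and 38.1 TPM, and Sox10, a factor of crest and glia of nerves, was over 1.5-fold apart (12.7 and 7.31). Of 8 cranial motor neuron genes 6 were detected, with summed TPM of 104 and 84.1 and a median of 0.16. Isl2, a motor and sensory neuron factor, was over 1.5-fold lower in pool 2 (17.7 and 10.6), while Tbx20 (1.38 and 2.68), chosen after its values were seen, was over 1.5-fold higher. Isl1, needed for motor neurons, stood at 45.4 and 31.6 and Mnx1, lowest, at 0.24 and 0.51. No gene of either list was at 0. The part of these cells in the Prph and Nefl values was not tested.

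Vim is also made by mesenchyme, endothelium and macrophages, and Nes by vessels and muscle precursors. All 8 mesenchyme genes were detected, with summed TPM of 575 and 544 (Col3a1, a fibrillar collagen, 232 ± 15.8; Dcn, a matrix proteoglycan, 12.0 and 23.7, over 1.5-fold higher in pool 2). Col1a2, another collagen, stood at 106 ± 11.1 and Foxc1, a mesenchymal factor, at 6.24 ± 0.0990. All 6 endothelial genes (98.2 and 84.4 TPM summed; Esam 21.7 ± 2.49, Cldn5 20.5 ± 4.40 and Tie1 7.50 ± 1.27) and all 6 macrophage genes (67.8 and 64.9; C1qb 26.8 ± 1.28, Tyrobp 17.3 and 13.1 in pools 1 and 2, and Ptprc 1.38 ± 0.177) were detected. Of 6 skeletal muscle genes 4 were detected, with summed TPM of 74.3 and 40.8. The muscle genes Actc1 (36.1 and 15.8), Myog (9.21 and 3.78) and Acta1 (7.88 and 3.50) were over 1.5-fold lower in pool 2. So was Myod1 (2.38 and 0.81), named after its values were seen. Of all expressed genes 1.63% were over 1.5-fold apart in that direction. The muscle list was chosen with earlier results of these data known, so setting it against that share is not a test. Mylpf stood at 17.4 and 16.1 and Myf5 at 1.22 and 0.73, and no gene of these 4 lists was at 0. The part of these cells in the Vim and Nes values was not tested.

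Other genes of the filament system came from lists of cytoplasmic filaments, lamins, linkers, regulators and motors. Of 13 other cytoplasmic filament genes 9 were detected, against 59.4% of protein-coding nuclear genes. These 13 were picked with earlier results known and do not cover the whole family. None of the 9 with a mean TPM of at least 1 was over 1.5-fold apart, against 3.14% of protein-coding genes. A count of 0 among so few is close to that background. The list stood at a median of 1.65 and 1.43 TPM. The epithelial keratins Krt8 (19.6 ± 1.77) and Krt18 (16.0 ± 0.170) were highest and Krt17 (0.16 and 0.17) lowest, so none of them reached the level of Nes. Synm, a partner of vimentin and desmin, stood at 1.65 and 1.40 TPM and Des, the muscle filament gene, at 1.79 and 1.43; these 2 were added after their values were seen. All 3 lamin genes, whose filaments line the nucleus, were detected: Lmnb1 at 74.6 and 51.0 TPM, Lmna at 16.9 and 16.0 and Lmnb2 at 14.3 and 10.0.

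The plakins, giant proteins that link filaments to other parts of the cytoskeleton, differed more between the pools than the other 4 lists of the filament system, by their median relative log2 ratio of 0.62. Macf1 stood at 54.8 and 77.3 TPM, Dst at 27.4 and 40.1 and Plec, the main filament linker, at 14.5 and 22.2. All 3 were over 1.5-fold higher in pool 2, against 4.35% of all expressed genes in that direction. The plakin list, too, was chosen with earlier results known, so setting it against that share is not a test. The relative log2 ratios of Macf1, Dst and Plec were 0.60, 0.64 and 0.70, while that of Dsp (0.86 and 1.16 TPM) was 0.32, under 1.5-fold. Of the 5 plakin genes matched, 3 were detected and Ppl was lowest at 0.61 and 0.80 TPM; Eppk1 was not matched.

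Among 13 kinases and turnover genes all were detected, with a median relative log2 ratio of -0.02. None was over 1.5-fold apart, which is close to the 3.14% of protein-coding genes. Cdk1, which phosphorylates vimentin and nestin at mitosis, was highest at 265 ± 37.4 TPM, followed by mean by Gsk3b (99.6 and 118), which can phosphorylate neurofilament tails. All 5 axonal motor genes were detected as well, with a median of 0.11. The kinesins Kif5b (126 ± 0.148) and Kif5c (81.6 ± 6.53) were highest and Myo5a, a myosin that binds neurofilaments, lowest at 25.3 ± 0.495.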

How the data were processed

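RNA-seq tables of 2 hindbrain libraries were used, 1 group in the labels. Extraction used a mirVana kit and reads were placed on mm10, per the labels; the annotation was GENCODE M4, per the deposited readme. The aligner and quantifier were not given in the sources used here. The authors deposited expected counts, TPM, FPKM and, per transcript, an isoform percent; interval bounds on the TPM scale (a signal column) are the authors' deposited values. Effective length in the deposited tables was length minus 99 nt.

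Symbols, coordinates (1-based) and transcripts came from GENCODE vM21 (GRCm38, the build of mm10), matched on identifiers without versions for 42462 of 43346 genes. Promoters are from RefSeq (GRCm38.p6). Pool ratios were log2((TPM + 1) in pool 2 over pool 1) minus its median over genes whose mean TPM was 1 or more; over 1.5-fold apart was the size rule. Exact 95% Poisson intervals (levels) and binomial intervals (pool ratios) used rounded counts. Depth was 45340440 and 41261544 expected counts. The ratio step was tested on simulated data.

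The members and 14 further lists (109 genes) were chosen with earlier results of these data known. Named are all members and their transcripts with at least 5% of the gene. Of each list, the 2 highest and 1 lowest gene are named, and genes past 1.5-fold whose mean TPM was 5 or more. Other names (Nefm-202, Vim-205, the tissue check genes, Aqp4, Des, Synm, Tbx20, Myod1 and Dsp) were added with their values known. A few items that this rule names are not reported here. Expected counts were rounded for the scaling alternatives (R 4.3.3 with DESeq2 1.42.0 and edgeR 4.0.16). The rest ran in Python 3.11.15 with pandas 2.3.3, NumPy 2.4.6, Matplotlib 3.10.9 and SciPy 1.17.1.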

Additional observations from a re-analysis of the deposited data

How the results depend on the processing

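The sum of Nes and Vim over that of the 5 neuronal filament genes (log2 0.82) moved to 0.15 with protein-coding transcripts only. It moved to 0.19 with all reads of a gene over the length of 1 coding transcript, a setting chosen after seeing the data. That transcript was the coding one with the highest mean TPM, except in Vim, where Vim-201 was taken. The log2 value was -0.25 with expected counts that are not per length, and 0.72 to 0.92 without either replicate. By construction, the first setting drops Vim-203 and the second gives its reads the length of Vim-201. Vim-206 had the higher mean TPM of the 2 (346 against 292) and the shorter effective length (1678 against 2094). Its length, which would give Vim a higher level, was not tried. Not per length, Ina held 31.7% of the neuronal sum and Prph 1.11%. Counted in reads, Nes-201 held 74.5% and Vim-203 12.5%. The share of genes over 1.5-fold apart was 2.73% at a mean TPM of at least 5, 9.74% at a pseudocount of 0.1 and 9.34% with edgeR's TMM scaling; the cause was not tested.

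With 2 libraries, leaving out 1 only returns the value of the other, so ranges without a replicate repeat the pool values. Without either replicate, neuronal shares were 37.2% to 39.5% (Nefl), 32.0% to 32.4% (Ina), 25.7% to 28.7% (Nefm), 1.97% to 2.23% (Prph) and 0.0925% to 0.148% (Nefh). Detected members numbered 6 either way, and with both pools 7 at a TPM of at least 0.5 and 6 at 5. Transcripts held 60.05% to 69.2% (Nes-201), 37.2% to 38.4% (Vim-203), 99.3% to 99.6% (Nefm-201), 89.2% to 95.3% (Prph-201) and 33.3% to 100% (Gfap-201, on 3.64 and 6 reads). Pool ratios of Nes, Vim, Nefl, Nefh, Ina and Prph kept their sign in all 7 alternatives, none over 1.5-fold. All 7 use the same 2 libraries, so a kept sign does not settle a direction. For Nefh the ratio was 0.29, with a 95% counting interval of -0.17 to 0.76, which includes 0. Nefh came closest, at 0.570 against a 1.5-fold cutoff of 0.585. Gfap kept its sign in 2 of 7 and was over 1.5-fold apart in 2 of 7, those with expected counts (-0.61 in each). Nefm fell to -0.03 when the median was taken over all genes with a read. Rescaled over protein-coding genes, without spike-ins, Vim stood at 1480 and Nefh at 1.05 TPM; in FPKM Vim stood at 690.2. Depth limits Nefh and Gfap. No paired analysis was possible because there is 1 group.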
